A study of Mus musculus with 28 samples.

Results

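Collagen genes encode the chains of the collagens, the main structural proteins of the extracellular matrix. They were taken from the table of 19421 genes by symbol alone, as every gene whose mouse symbol is Col, a number, the letter a and a number, and 42 met that rule. By the type of assembly that the chain enters, 11 were fibrillar, 6 were chains of type IV collagen of basement membranes and 25 belonged to other collagens. All 42 passed the filter on low values (10 normalized counts or more in 2 or more libraries) and were tested. Another 2 collagen genes of the RefSeq list, Col6a3 and Col10a1, were not analysed here.

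Collagen chains wind around each other into a helix that is secreted and assembled outside the cell. Fibrillar collagens (types I, II, III, V and XI among them) form the fibres of connective tissue, cartilage and bone, whereas type IV forms the sheet-like network of basement membranes and is an early product of endoderm and epithelium in the embryo. Chains assemble in particular combinations, among them Col1a1 with Col1a2, Col4a1 with Col4a2, and Col4a5 with Col4a6. Chains that can share a trimer are described side by side here. In the inner ear, collagens of types II, IX and XI are known from the tectorial membrane, and loss of type IV or type XI chains is known to impair hearing.

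The study asked how Gfi1 and Pou4f3, transcription factors of inner ear hair cells, change what the neuronal and hair cell factor Atoh1 does. RNA-seq was run on 7 lines of mouse embryonic stem cells (ESCs) that carry a doxycycline (Dox)-inducible cassette with a Venus reporter: iAtoh1, iGfi1 and iPou4f3 with 1 factor, iG+A (Gfi1 and Atoh1), iG+P (Gfi1 and Pou4f3) and iP+A (Pou4f3 and Atoh1) with a pair, and iGPA with all 3. All lines derive from A2loxCre ESCs, a line in which the cassette is placed at a fixed site. Each line was grown as embryoid bodies (EBs), aggregates in which ESCs differentiate, to day 6, either with 2 µg/ml Dox for 48 h from day 4 (Dox) or without (Ctrl), in 2 libraries each that come from different clones of the line, 28 libraries in all.

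The Dox libraries were made from Venus+ cells sorted by flow cytometry and the Ctrl libraries from whole unsorted EBs, which means that within a line induction and sorting cannot be told apart. The ESCs were maintained on feeder fibroblasts, which make fibrillar collagens, and the feeders were removed before EBs were formed. The 3 induced factors followed the labels: Gfi1 had 8119 to 12487 normalized counts in the Dox libraries of lines that carry it and at most 119 in every other library, Atoh1 12816 to 21242 against at most 120.1, and Pou4f3 4694 to 19883 against at most 101. Estimated depth was 30.4 to 48.0 M reads a library. These are bulk libraries, in which fewer cells of a type and less RNA per cell cannot be told apart.

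In the Ctrl libraries the 42 collagen genes together took 0.269% to 0.511% of all normalized counts (median 0.387%). Counted per kilobase of transcript, which allows levels of different genes to be compared, Col1a1, the more abundant chain of type I collagen, was highest with a mean of 7724 normalized counts per kb (4423 to 10474 over the 14 libraries). Col18a1, a basement membrane proteoglycan core from which endostatin is cut, came next with 3524 (2706 to 4168). These ranges did not overlap. Col5a1, Col1a2, Col3a1, Col4a1 and Col4a2 followed with 2460, 2232, 1869, 1728 and 1324 normalized counts per kb, and the ranges of neighbours in this order overlapped. At the other end, Col6a5, Col4a3 and Col6a6 had 0.535, 0.71 and 2.08 normalized counts per kb. The lines differed before induction in 6 of 42 collagen genes (limma F test over the 7 Ctrl groups, adjusted p under 0.05), which is 14.3% against 12.1% of all genes tested. They were Col5a2, Col15a1, Col1a2, Col20a1, Col9a2 and Col8a1, and in all but Col20a1 the lowest Ctrl group was iG+P. The Ctrl groups lay furthest apart in Col5a2, by 3.22 on the log2 scale (adjusted p = 0.0154).

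Between Dox and Ctrl libraries, collagen genes were called in both directions, and falls outnumbered rises. A gene was called when its limma adjusted p was under 0.05 and its log2 fold change at least 1.5 in either direction, and the difference of Dox minus Ctrl within a line is named its Dox effect, which covers induction and sorting together. Over 7 lines and 42 genes, which make 294 gene and line pairs, 17 pairs rose (5.78%, against a background of 4.62% over all genes tested) and 44 fell (15%, against a background of 3.43%). The share of rises was near the background. At least 1 line called 22 of the genes, of which 12 only fell, 9 only rose and 1, Col12a1, fell in 2 lines and rose in 1. No line called the other 20.

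The lines differed in how many collagen genes they called. In iGPA 4 of 42 rose (background over all 16837 genes tested 8.65%) and 11 fell (background 5.31%). In iG+P 3 rose (background 5.16%) and 10 fell (background 5.36%). In iG+A 6 rose (background 7.35%) and 8 fell (background 4.95%). These 3 lines, which carry Gfi1 with another factor, thus had 26.2%, 23.8% and 19% of the collagen genes lower. In iGfi1 none rose (background 2.15%) and 5 fell (background 2.67%). In iAtoh1 3 rose (background 2.89%) and 5 fell (background 2.52%), and in iP+A 1 rose (background 4.7%) and 5 fell (background 2.58%). Single libraries carried some of these counts. In iAtoh1 none of the 5 falls was called without Ctrl replicate 2, and 2 were without Dox replicate 1 or Dox replicate 2. In iP+A 2 falls were called without Ctrl replicate 1 and 3 without Dox replicate 1 or Dox replicate 2, and in iG+P 6 were without Ctrl replicate 2. In iPou4f3 no collagen gene was called in either direction (background 1.47% up and 0.606% down). By limma at an unadjusted p under 0.05, 3 were higher and 2 lower in iPou4f3, and 3 were higher in iGfi1.

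**Figure D1:**
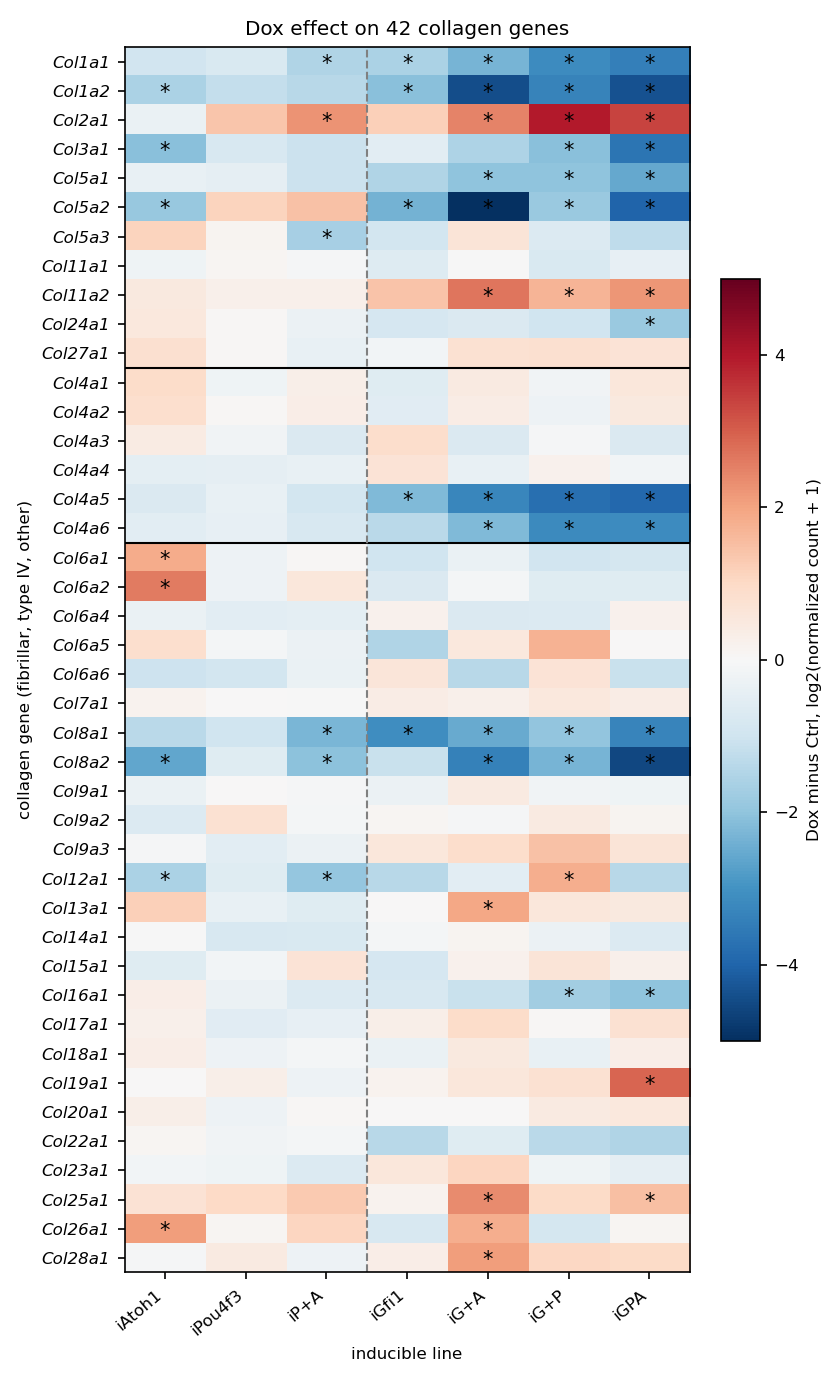
Dox minus Ctrl on the scale of log2(normalized count + 1) for 42 collagen genes (rows: fibrillar, type IV and other, split by black lines) in 7 lines (columns: without Gfi1 left and with Gfi1 right of the dashed line), with called pairs marked by a star. Blue stars gather in Col1a1, Col1a2, Col5a1, Col5a2, Col4a5, Col4a6, Col8a1 and Col8a2 on the right, Col2a1 and Col11a2 are red there, and the iPou4f3 column holds no star.

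Differences between the classes were not tested, and each is given by its counts and medians. The counts can be read against the background shares of each line given above. Of 11 fibrillar genes, 6 fell and 2 rose in iGPA, with a median log2 fold change of -1.84 against 0.01 over all genes tested. The same count was 5 and 2 in iG+P (median -0.99), 4 and 2 in iG+A (median -0.72), 3 and 0 in iGfi1 (median -0.84), 3 and 0 in iAtoh1 (median -0.32), 2 and 1 in iP+A (median -0.35) and 0 and 0 in iPou4f3 (median 0.06). Of 6 type IV genes, 2 fell in iGPA, iG+P and iG+A (background 5.31%, 5.36% and 4.95%) and 1 in iGfi1 (background 2.67%). In iAtoh1, iP+A and iPou4f3, the 3 lines without Gfi1, the background of falls was 2.52%, 2.58% and 0.606%. None of the 6 type IV genes was called there, which is near that background. Their medians were -0.44 in iGPA, -0.21 in iG+P, -0.56 in iG+A, -0.59 in iGfi1, -0.05 in iAtoh1, -0.55 in iP+A and -0.30 in iPou4f3, so in iP+A and iPou4f3 the type IV median was the lower of the 2 classes. At an unadjusted p under 0.05, limma had 2 type IV genes higher in iAtoh1, 1 lower in iP+A and 0 either way in iPou4f3. Of 25 other collagen genes, 3 fell and 2 rose in iGPA, 3 and 1 in iG+P, 2 and 4 in iG+A, 1 and 0 in iGfi1, 2 and 3 in iAtoh1 and 3 and 0 in iP+A. The medians of this class lay between -0.27 and 0.20. Counting Col7a1, Col15a1, Col17a1 and Col18a1 among the basement membrane genes added no call in any line.

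Summed over the class, fibrillar collagen fell from 72114 and 99843 normalized counts in the Ctrl libraries of iGPA to 12778 and 15936 in its Dox libraries. In iPou4f3 the 2 Dox libraries had 94548 and 53902 and the Ctrl libraries 135619 and 89806, so the groups overlapped. In each of the other 6 lines both Dox libraries lay below both Ctrl libraries. Over all lines the fibrillar share of a library was 0.131% to 0.340% in Ctrl (median 0.235%) and 0.0343% to 0.242% in Dox (median 0.0951%). Type IV collagen took 0.0529% to 0.0720% in Ctrl and 0.0354% to 0.114% in Dox, with medians of 0.0653% and 0.0641%.

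**Figure D2:**
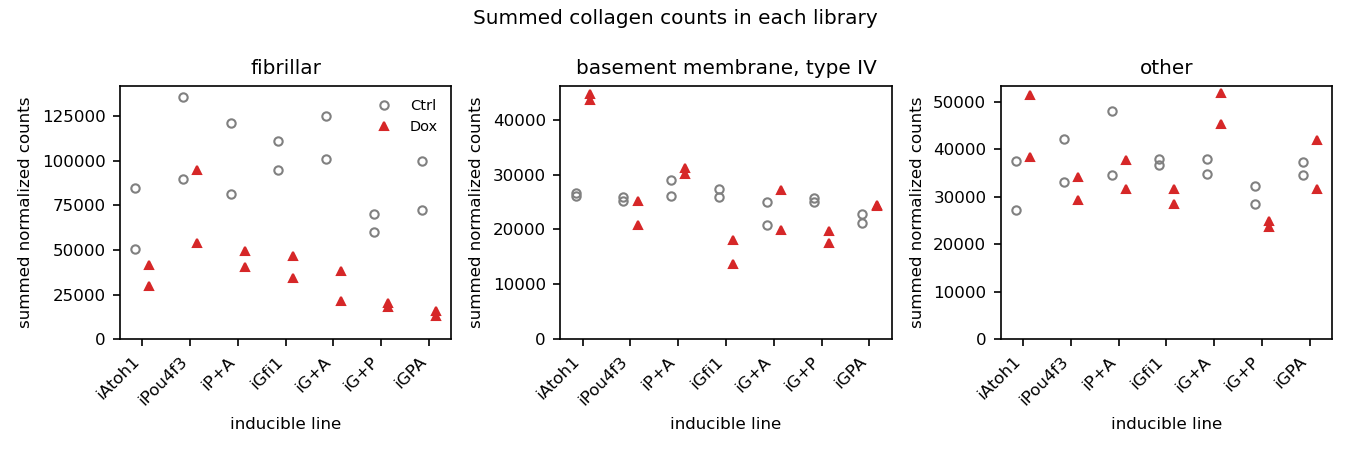
Summed normalized counts (axis from 0) of fibrillar, type IV and other collagen genes in each library, with Ctrl as open circles and Dox as triangles, 2 per line. In the fibrillar panel Dox lies below Ctrl in every line but iPou4f3, where the groups overlap, and the iGPA Dox libraries are lowest, at 12778 and 15936. In the type IV panel the iAtoh1 Dox libraries are highest, at 43533 and 44580.

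The sequences upstream of 4 genes called in iGPA, 3 that fell and 1 that rose, are shown to set genes of opposite response side by side, and none of these windows overlaps an annotated exon. The 250 bases before the RefSeq start are given in the direction of transcription (GRCm38.p6). Capitals mark the letters of any of 7 short motifs on either strand: the E-boxes CAGCTG and CAGATG (the kind of site that Atoh1 binds), the GC box GGGCGG, the CCAAT box, AATCAC (core letters of the Gfi1 motif), ATTAAT (of POU factors) and TATAAA. Col3a1 (chr1:45311288-45311537, + strand), Col5a1 (chr2:27886175-27886424, + strand) and Col4a6 (chrX:141474077-141474326, - strand) fell in iGPA and iG+P, and Col11a2 (chr17:34038888-34039137, + strand) rose in both.
Col3a1: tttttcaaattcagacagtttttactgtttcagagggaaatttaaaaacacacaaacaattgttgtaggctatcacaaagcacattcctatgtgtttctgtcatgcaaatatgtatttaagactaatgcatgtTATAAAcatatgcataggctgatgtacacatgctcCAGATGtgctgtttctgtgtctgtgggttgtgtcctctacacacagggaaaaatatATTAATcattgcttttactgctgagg
Col5a1: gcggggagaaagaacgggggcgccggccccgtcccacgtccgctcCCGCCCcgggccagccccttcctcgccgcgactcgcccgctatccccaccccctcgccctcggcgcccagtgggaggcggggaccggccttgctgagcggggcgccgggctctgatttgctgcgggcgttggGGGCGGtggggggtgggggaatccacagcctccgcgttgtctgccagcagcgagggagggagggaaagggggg
Col4a6: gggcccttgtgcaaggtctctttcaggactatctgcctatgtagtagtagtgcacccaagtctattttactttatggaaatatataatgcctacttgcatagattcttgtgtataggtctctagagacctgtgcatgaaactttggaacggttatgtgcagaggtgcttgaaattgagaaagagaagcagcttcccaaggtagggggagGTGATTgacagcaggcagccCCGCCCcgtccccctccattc
Col11a2: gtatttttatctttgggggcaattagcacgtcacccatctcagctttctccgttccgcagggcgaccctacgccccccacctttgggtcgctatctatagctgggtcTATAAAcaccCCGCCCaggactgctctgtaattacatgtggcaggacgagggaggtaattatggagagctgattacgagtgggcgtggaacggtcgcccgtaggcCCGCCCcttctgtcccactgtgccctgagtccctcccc

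These windows differ in composition. The Col3a1 window was 35.2% G and C, held the E-box CAGATG and the letters of the POU motif, and also held TATAAA, and Col5a1 had 76.4% with 2 GC boxes and none of the other motifs. Col4a6 held a GC box and an AATCAC on the opposite strand, and Col11a2 held a TATAAA and 2 GC boxes. Over all 32851 RefSeq promoters, the same window held CAGCTG in 13%, CAGATG in 14.4%, GGGCGG in 32.7%, CCAAT in 33.8%, AATCAC in 9.1%, ATTAAT in 4.4% and TATAAA in 12.4%. Of the collagen genes, 33 matched the RefSeq table, with 36 windows, and 22 of these windows held GGGCGG, 4 held AATCAC and 6 held CAGCTG. A match of letters is a description of the window only, and windows were not matched for base composition.

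The type I chains were lower with Dox in most lines. Col1a1 (Entrez 12842, NCBIM37 chromosome 11, 94797538 to 94814356) had 38845 and 44545 normalized counts in the Ctrl libraries of iGPA and 4106 and 3672 in the Dox libraries. Both Dox libraries lay far below both Ctrl libraries, a 10.7-fold lower mean (log2 fold change -3.42 ± 0.38 SE, limma adjusted p = 9.89e-07). It also fell in iG+P (log2 -3.13), iG+A (-2.33), iGfi1 (-1.59) and iP+A (-1.51). In iAtoh1 and iPou4f3 the values were -0.95 and -0.75 and not called, with Dox below Ctrl in both lines. The calls in iGfi1 and iP+A rested on single libraries: without Dox replicate 1 the iGfi1 value was -1.20 (limma adjusted p = 0.0968), and without Ctrl replicate 1 or Dox replicate 2 the iP+A value was -1.19 (adjusted p = 0.0799) or -1.29 (adjusted p = 0.073). Against all 14 Ctrl libraries these 2 values were -1.45 and -1.37, and the iP+A value was -1.43 under quantile scaling, each under the fold threshold.

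Col1a2 (Entrez 12843, chromosome 6, 4454814 to 4491543), the partner chain of Col1a1, also fell in 5 lines. In iG+A it had 22340 and 17246 normalized counts in Ctrl and 1569 and 537 in Dox, with no overlap and an 18.8-fold lower mean (log2 -4.42 ± 0.42, limma adjusted p = 2.31e-07). In iGPA it had 7825 and 14484 in Ctrl and 470.1 and 587 in Dox, again with no overlap (21.1-fold, log2 -4.34, adjusted p = 1.62e-07). Falls were also called in iG+P (log2 -3.32), in iGfi1 (-2.11) and, 3.04-fold, in iAtoh1. The iAtoh1 call ended without Ctrl replicate 2 (log2 -1.33, limma adjusted p = 0.0879) or Dox replicate 1 (log2 -1.39, adjusted p = 0.0832). In iP+A and iPou4f3 the values were -1.37 and -1.21 and not called, and in iP+A this was the smaller change of the pair. The 2 chains had the same sign in all 7 lines, and their effects were within 0.5 of each other in 3 lines and lay 2.08 apart in iG+A. Per kb, the ratio of Col1a1 to Col1a2 ran from 2.17 to 10.6 over the Ctrl libraries (median 3.63) and from 3.58 to 11.2 over the Dox libraries (median 5.87).

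Col3a1 and Col5a2 are neighbours on chromosome 1, with starts 191744 bases apart on opposite strands (NCBIM37), and both chains enter fibrils together with type I collagen. Col3a1 (Entrez 12825, 45368383 to 45406551) had 5832 and 15008 normalized counts in the Ctrl libraries of iGPA and 420 and 1306 in Dox. The groups did not overlap, although each spread more than 2-fold (log2 -3.66 ± 0.65, limma adjusted p = 0.000155). It also fell in iG+P (log2 -2.09) and in iAtoh1 (-2.08). These 2 calls depended on single libraries, and the iG+P call also ended with the libraries of that line alone (adjusted p = 0.0722). In iG+P the value was -1.41 without Ctrl replicate 2 and -1.29 without Dox replicate 1. In iAtoh1 it was -1.84, -2.32 and -1.64 without Ctrl replicate 1, Ctrl replicate 2 or Dox replicate 2. The iAtoh1 values stayed past the fold threshold, so that call ended on adjusted p and not on the fold. In iG+A the value was -1.53 with an adjusted p of 0.0667 (limma), and under a replicate block it was called (adjusted p = 3.81e-05). In iGfi1 it was -0.53 with overlapping libraries.

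Col5a2 (Entrez 12832, 45431166 to 45560127), a regulatory chain of type V collagen in type I fibrils, had the widest spread of Dox effects. In iG+A it had 2962 and 1648 normalized counts in Ctrl and 118 and 40.3 in Dox, with no overlap and a 29.1-fold lower mean (log2 -4.98 ± 0.65, limma adjusted p = 8.85e-06). In iGPA it had 616 and 2210 in Ctrl and 51.2 and 101 in Dox, again apart (log2 -4.00, adjusted p = 6.57e-05). In the 2 lines with Pou4f3 but without Gfi1 it was higher with Dox. In iP+A it had 946 and 660 in Ctrl and 2242 and 2135 in Dox, with both Dox libraries above both Ctrl libraries, though not called (log2 1.47, limma adjusted p = 0.108), and in iPou4f3 the groups overlapped (log2 1.11, adjusted p = 0.391).

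The other falls of Col5a2 were less firm. It fell in iGfi1 (log2 -2.37), iAtoh1 (-1.90) and iG+P (-1.84). The iGfi1 call ended without Ctrl replicate 1 (limma adjusted p = 0.0977) or Dox replicate 2 (adjusted p = 0.0905) and against all 14 Ctrl libraries (adjusted p = 0.0674). The iG+P call ended without Ctrl replicate 2 (log2 -1.06, limma adjusted p = 0.338) or Dox replicate 1 (log2 -1.38, adjusted p = 0.227) and with the libraries of that line alone (adjusted p = 0.08). The iAtoh1 call ended without any 1 of its 4 libraries (limma adjusted p from 0.0978 to 0.176). Without limma's variance trend the iG+P and iAtoh1 calls ended too (adjusted p = 0.0538 and 0.0639). Col3a1 and Col5a2 differed in their effects by up to 3.45 (iG+A) and had the same sign in 5 of 7 lines.

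Col5a1 (Entrez 12831, chromosome 2, 27741945 to 27895034), whose GC-rich upstream window is shown above, encodes the main chain of type V collagen. It had 16497 and 20915 normalized counts in the Ctrl libraries of iGPA and 2582 and 3923 in Dox, with no overlap (5.75-fold lower, log2 -2.54 ± 0.35, limma adjusted p = 9.73e-06). The same direction was called in iG+P (log2 -2.01) and, 3.96-fold lower, in iG+A, and these 3 calls held without each library in turn. In iGfi1 the value was just short of the fold threshold, at -1.49 (limma adjusted p = 0.00403). Col5a3, the minor type V chain, was low, with 22.2 and 43.9 normalized counts in the Ctrl libraries of iP+A and 7.20 and 11.5 in Dox. These groups were apart (log2 -1.68, limma adjusted p = 0.0108), but the call ended without Ctrl replicate 2 (log2 -1.20, adjusted p = 0.141) or Dox replicate 1 (log2 -1.37, adjusted p = 0.117), with a pseudocount of 5 (log2 -1.36), with the libraries of that line alone (adjusted p = 0.0942) and against all 14 Ctrl libraries (log2 -0.98). Col24a1, a fibrillar chain of developing bone, had 102 and 105 in the Ctrl libraries of iGPA and 34.8 and 22.8 in Dox, and fell there (log2 -1.84, limma adjusted p = 0.0014).

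**Figure D3:**
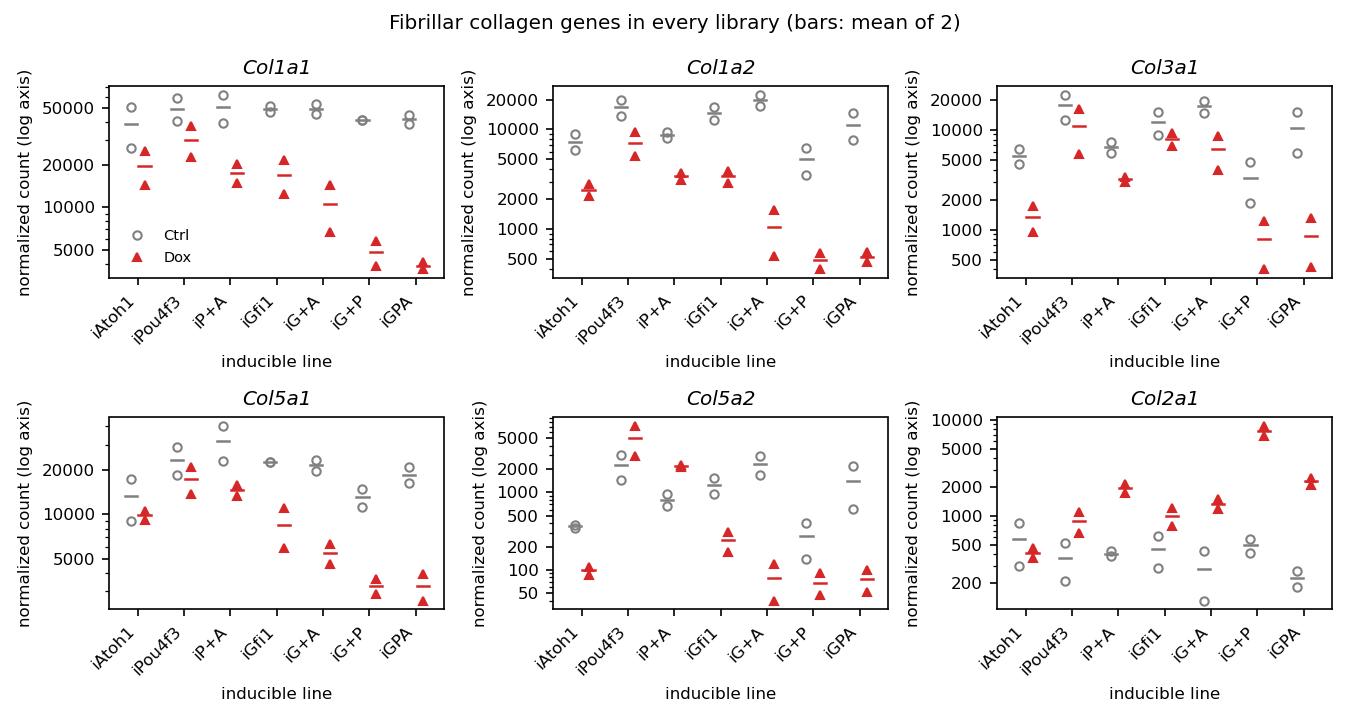
Normalized counts (log axis) of Col1a1, Col1a2, Col3a1, Col5a1, Col5a2 and Col2a1 in all 28 libraries, with Ctrl as open circles, Dox as triangles and bars at the mean of 2, by line (without Gfi1 the 3 on the left). Col1a2 drops to 395 to 1569 in the Dox libraries of iG+A, iG+P and iGPA, Col5a2 lies above its Ctrl in iP+A, and Col2a1 lies above its Ctrl in every line but iAtoh1.

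The fibrillar genes that rose were Col2a1 and Col11a2, both expressed in cartilage. Col2a1 (Entrez 12824, chromosome 15, 97806033 to 97835155), the chain of type II collagen of cartilage, notochord and the inner ear, had 407 and 574 normalized counts in the Ctrl libraries of iG+P and 8625 and 6766 in Dox. The Dox libraries were far above, a 15.7-fold higher mean (log2 3.98 ± 0.53, limma adjusted p = 1.26e-05). In iGPA it had 267 and 179 in Ctrl and 2121 and 2458 in Dox, also apart (10.3-fold, log2 3.38, adjusted p = 4.77e-05). It rose by 2.49 in iG+A and by 2.25 in iP+A, and all 4 calls held without each of the line's libraries in turn. In iPou4f3 and iGfi1 both Dox libraries were above both Ctrl libraries without a call (log2 1.37 and 1.21, limma adjusted p = 0.167 and 0.104), and in iAtoh1 the groups overlapped (log2 -0.32).

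Col11a2 (Entrez 12815, chromosome 17, 34176382 to 34203630), a type XI chain of cartilage and of the tectorial membrane, rose in the 3 lines that carry Gfi1 with another factor. In iG+A it had 463 and 417 normalized counts in Ctrl and 3828 and 2095 in Dox, with no overlap (6.73-fold, log2 2.69 ± 0.23, limma adjusted p = 6.96e-08). It rose by 2.19 in iGPA and by 1.72 in iG+P (1.47 against all 14 Ctrl libraries, under the fold threshold), and in iGfi1 it was 1.44 higher (limma adjusted p = 0.000212), short of the fold threshold. In the 3 lines without Gfi1 its values were between 0.25 and 0.50. Col11a1, the partner chain of Col11a2 in type XI collagen, did not rise with it: it was not called in any line (log2 -0.75 to 0.09), and both Dox libraries lay below both Ctrl libraries in iG+P (log2 -0.75, limma adjusted p = 0.0112), iGfi1 (log2 -0.65, adjusted p = 0.0323) and iGPA (log2 -0.43, adjusted p = 0.115). Col27a1 was the other fibrillar gene with no call (-0.35 to 0.81). Of 9 other cartilage markers, 0 rose (background 8.65%) and 2, Matn3 and Sox5, fell (background 5.31%) in iGPA. In iG+P 2 rose, Matn1 and Cnmd (background 5.16%), and 3 fell, Matn3, Comp and Hapln1 (background 5.36%), and in iG+A 1 rose, Comp (background 7.35%), and 1 fell, Matn3 (background 4.95%). In iP+A 1 rose, Cnmd (background 4.7%), and 2 fell (background 2.58%), in iGfi1 1 rose and 1 fell (background 2.15% and 2.67%), in iAtoh1 1 fell (background 2.52%) and in iPou4f3 none was called. The summed level of the list was 6451 and 6161 normalized counts in the Ctrl libraries of iG+P and 3366 and 3575 in Dox. In iG+A it was 8000 and 6927 in Ctrl and 11252 and 7415 in Dox, and in iGPA 7590 and 8093 in Ctrl and 6132 and 8898 in Dox, so the groups overlapped in both. Acan, a cartilage proteoglycan that defines the list, had 23.8 and 13.6 normalized counts in the Ctrl libraries of iGPA and 7.09 and 6.29 in Dox.

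The type IV genes lie in 3 head-to-head pairs, in which both genes start near each other on opposite strands, and are given pair by pair. Col4a1 and Col4a2 (chromosome 8, starts 21 bases apart) encode the chains of the basement membrane network found in nearly all tissues. In iAtoh1, Col4a1 had 14178 and 12016 normalized counts in Ctrl and 25201 and 24541 in Dox. The Dox libraries were higher without overlap, though below the fold threshold (log2 0.93 ± 0.17, limma adjusted p = 0.000777), and Col4a2 had 0.84 there (adjusted p = 0.00244). In iGfi1 both were lower, at -0.59 on the log2 scale (limma adjusted p = 0.017 for Col4a1 and 0.0213 for Col4a2). Neither gene was called in any line, with Col4a1 between -0.59 and 0.93, and the effects of the 2 genes differed by at most 0.25. Per kb, the ratio of Col4a1 to Col4a2 was 1.14 to 1.52 in Ctrl and 1.10 to 1.51 in Dox.

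Col4a5 and Col4a6 (chromosome X, starts 1309 bases apart), whose chains form the type IV network of smooth muscle and some epithelial basement membranes, both fell in iGPA, iG+P and iG+A, and Col4a5 also fell in iGfi1. Col4a5 (Entrez 12830, 137909928 to 138123778) had 3203 and 4059 normalized counts in the Ctrl libraries of iGPA and 177 and 311 in Dox, with no overlap (14.9-fold lower, log2 -3.94 ± 0.44, limma adjusted p = 8.80e-07). In iGfi1 it had 3606 and 3579 in Ctrl and 655 and 915 in Dox, again apart (4.58-fold, log2 -2.21, adjusted p = 0.00123). Falls were also called in iG+P (log2 -3.78) and iG+A (-3.27), and all 4 calls held without each of the line's libraries in turn. In iAtoh1, iP+A and iPou4f3 the values were -0.71, -0.92 and -0.39, none of them called.

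Col4a6 (Entrez 94216, 137599946 to 137908619), transcribed away from Col4a5, had 1947 and 1806 normalized counts in the Ctrl libraries of iG+P and 144 and 295 in Dox. The groups were apart (8.56-fold lower, log2 -3.18 ± 0.55, limma adjusted p = 0.000184). It also fell in iGPA (log2 -3.16) and iG+A (-2.22). The iG+A Dox libraries were unlike each other, at 1155 and 192, and without Dox replicate 2 the value was -0.93 (limma adjusted p = 0.107), and the call also ended with the libraries of that line alone (adjusted p = 0.114). In iGfi1 both Dox libraries were below Ctrl without a call (log2 -1.35, limma adjusted p = 0.078). The pair had the same sign in all 7 lines, and their effects differed most in iG+A, by 1.05. Per kb, the ratio of Col4a5 to Col4a6 was 1.35 to 2.11 in Ctrl (median 1.89) and 0.64 to 1.95 in Dox (median 1.29).

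Col4a3 and Col4a4 (chromosome 1, starts 72 bases apart), chains of the glomerular and cochlear basement membranes, were low and not called in any line. Col4a4 had 30.3 to 100.03 normalized counts over all 28 libraries, highest in both Dox libraries of iGfi1 (95.7 and 100.03), and Col4a3 had 0.866 to 12.7. Their Dox effects lay between -0.73 and 0.86.

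**Figure D4:**
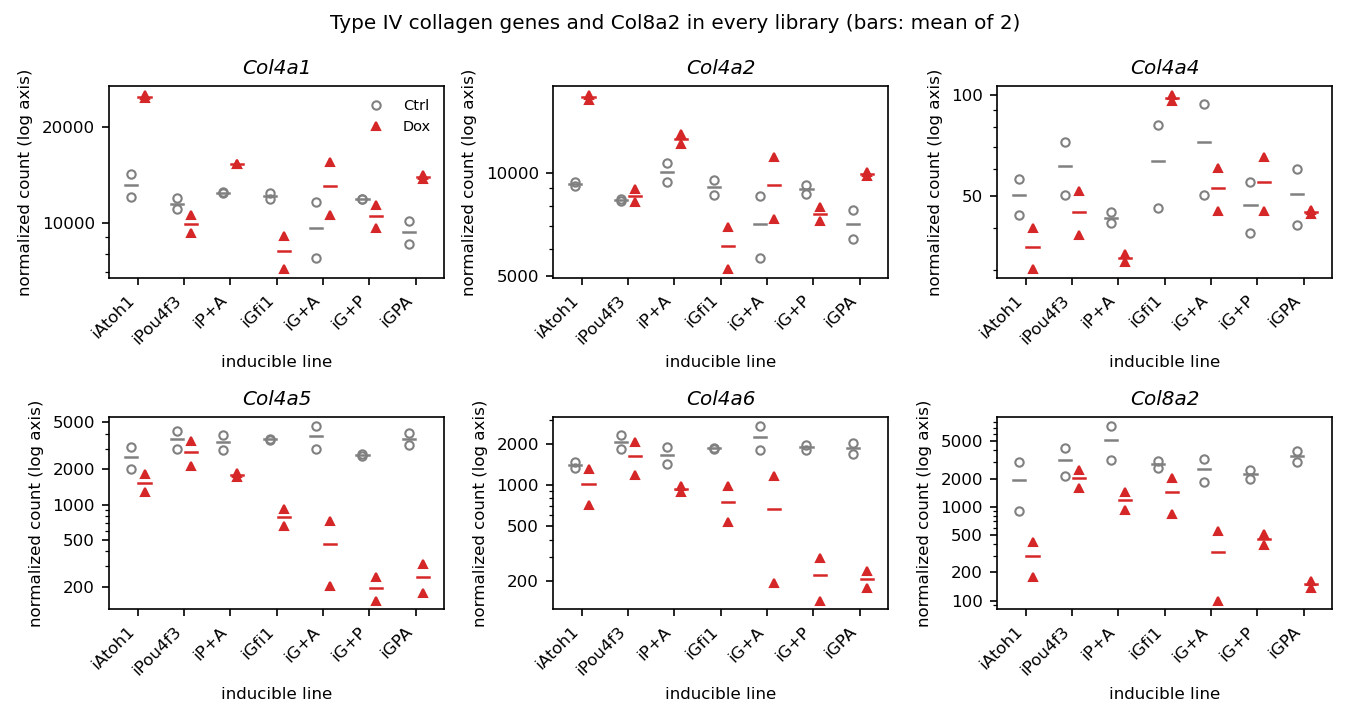
Normalized counts (log axis) of Col4a1, Col4a2, Col4a4, Col4a5, Col4a6 and Col8a2 in all 28 libraries, with Ctrl as open circles, Dox as triangles and bars at the mean of 2, by line. Col4a1 and Col4a2 stay under the fold threshold in every line and are highest in the Dox libraries of iAtoh1, and Col4a5 falls from 2581 to 4644 in Ctrl to 153 to 915 in Dox over the 4 lines with Gfi1.

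Among the other collagens, the type VIII chains fell in 5 lines each. Col8a2, a short chain of the basement membrane of corneal endothelium and of vessel walls, had 3047 and 3979 normalized counts in the Ctrl libraries of iGPA and 164 and 136 in Dox. The groups were far apart (23.4-fold lower, log2 -4.53 ± 0.68, limma adjusted p = 2.86e-05). Falls were also called in iG+A (log2 -3.37), iAtoh1 (-2.59), iG+P (-2.32) and iP+A (-2.06). Only the iGPA and iG+A calls held without each library of the line. In iAtoh1 the call ended without Ctrl replicate 2 (log2 -1.72) or Dox replicate 1 (-1.96), and in iG+P without Ctrl replicate 2 (-2.15) or Dox replicate 1 (-2.11). In iP+A it ended without Ctrl replicate 1 (-1.47), Dox replicate 1 (-2.38) or Dox replicate 2 (-1.75). All of these values but -1.47 stayed past the fold threshold, so there the calls ended on adjusted p. With the libraries of the line alone the iAtoh1 and iP+A calls ended (limma adjusted p = 0.0908 and 0.0529), and against all 14 Ctrl libraries the iP+A value was -1.27. The iP+A call also ended without limma's variance trend (adjusted p = 0.0527).

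Col8a1, the partner chain of Col8a2, had 15.7 normalized counts per kb in Ctrl on average against 709 for Col8a2 and fell in iGPA, iGfi1, iG+A, iP+A and iG+P. In iGfi1 it had 152 and 81.4 normalized counts in Ctrl and 14.2 and 10.1 in Dox, with no overlap (9.58-fold lower, log2 -3.11 ± 0.43, limma adjusted p = 5.75e-05). It also fell in iGPA (log2 -3.32), iG+A (-2.52), iP+A (-2.27) and iG+P (-1.98), where the value was -1.41 without Dox replicate 2 (limma adjusted p = 0.0386) and so below the fold threshold. Col16a1, a fibril-associated chain of skin and muscle, fell in iGPA (log2 -2.01) and in iG+P (-1.73). The iGPA call ended without Dox replicate 1 (log2 -1.38, limma adjusted p = 0.0703), and the iG+P call without Ctrl replicate 2 (adjusted p = 0.0601) or Dox replicate 2 (adjusted p = 0.0713).

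Type VI collagen, whose beaded filaments surround cells of muscle and connective tissue, was called in iAtoh1 and in none of the other 6 lines. Col6a1 (Entrez 12833) had 863 and 1783 normalized counts in the Ctrl libraries of iAtoh1 and 3774 and 5490 in Dox, and Col6a2 (Entrez 12834) had 243 and 573 in Ctrl and 1721 and 3012 in Dox. For both genes the Dox libraries were above the Ctrl libraries. Col6a2 rose by 2.60 ± 0.41 (limma adjusted p = 0.000174) and Col6a1 by 1.87 ± 0.35 (adjusted p = 0.000914). The Col6a1 value was 1.35 without Ctrl replicate 1 (limma adjusted p = 0.0246) and 1.21 against all 14 Ctrl libraries, both under the fold threshold, and with the libraries of iAtoh1 alone the call ended (adjusted p = 0.0565). In iGPA the values were -0.89 and -0.60, and the Dox effect of iGPA minus that of iAtoh1 was -2.76 for Col6a1 and -3.20 for Col6a2, both past the threshold. The genes lie 102538 bases apart on chromosome 10, on the same strand, and had the same sign in all 7 lines. Col6a4, Col6a5 and Col6a6 were low in every library, at most 41.4 normalized counts.

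Col26a1, a collagen of testis and ovary of little-known function, rose in 2 of the 4 lines with Atoh1, iAtoh1 and iG+A. In iAtoh1 it had 600.2 and 953 normalized counts in Ctrl and 3108 and 3266 in Dox, with no overlap (log2 2.07 ± 0.26, limma adjusted p = 1.72e-05). It rose by 1.82 in iG+A, and without Dox replicate 2 that value was 1.42 (limma adjusted p = 0.000875) and against all 14 Ctrl libraries 1.36, both under the fold threshold. In iP+A it was 1.07 higher without a call (limma adjusted p = 0.00518), in iGPA the groups overlapped (log2 0.09), and in iGfi1 and iG+P it was lower (log2 -0.79 and -0.89).

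Col12a1, a fibril-associated chain of tendon and embryonic connective tissue, was the collagen gene called in both directions. In iG+P it had 284 and 360.4 normalized counts in Ctrl and 1086 and 1169 in Dox, with the Dox libraries above (log2 1.81 ± 0.36, limma adjusted p = 0.000724). In iP+A it had 1015 and 558 in Ctrl and 199 and 194 in Dox, with the Dox libraries below (log2 -1.93, limma adjusted p = 0.000704), and without Ctrl replicate 1 it came just under the fold threshold (adjusted p = 0.0167). In iAtoh1 it also fell (log2 -1.56), and the call ended without Ctrl replicate 2 (log2 -0.88, limma adjusted p = 0.102) or Dox replicate 2 (log2 -1.47, adjusted p = 0.0385) and with the libraries of iAtoh1 alone (adjusted p = 0.123). Against all 14 Ctrl libraries the iG+P and iP+A values were 1.30 and -1.21, under the fold threshold. In iGPA and iGfi1, which carry Gfi1 as iG+P does, both Dox libraries lay below both Ctrl libraries, under the fold threshold (log2 -1.39 in each, limma adjusted p = 0.00434 and 0.00852). In iG+A the groups overlapped (log2 -0.52), and in iPou4f3 the Dox libraries were below without a call (log2 -0.61). The Dox effect of iG+P minus that of iPou4f3 was 2.43 and past the threshold.

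The remaining rises were in genes of low or moderate level. Col13a1, a transmembrane collagen of the neuromuscular junction, had 406 and 718 normalized counts in the Ctrl libraries of iG+A and 2133 and 1985 in Dox and rose by 1.93 ± 0.34 (limma adjusted p = 0.000178), which was 1.27 against all 14 Ctrl libraries. Col25a1, a transmembrane collagen of neurons needed for motor innervation of muscle, had 49.3 and 45.0 in Ctrl and 185 and 336 in Dox of iG+A and rose by 2.38 (limma adjusted p = 0.000101). Both genes had the Dox libraries above the Ctrl libraries. Col25a1 also rose by 1.51 in iGPA, a call that ended without Ctrl replicate 2 (log2 1.23, limma adjusted p = 0.055) or Dox replicate 2 (log2 1.13, adjusted p = 0.0667), and the value came under the fold threshold with quantile scaling (1.10), a pseudocount of 5 (1.43) or all 14 Ctrl libraries as control (1.42). Col19a1, a fibril-associated chain known in hippocampal neurons and the esophagus, had 24.0 and 7.77 in the Ctrl libraries of iGPA and 111 and 111 in Dox (log2 2.92, limma adjusted p = 0.000242), with no overlap. Col28a1, a collagen of peripheral nerve sheaths, had 6.96 and 13.4 in Ctrl and 46.8 and 41.5 in Dox of iG+A (log2 2.07, limma adjusted p = 0.00449), also without overlap, and the call ended without Ctrl replicate 1 (log2 1.64, adjusted p = 0.0619).

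Per kb, Col18a1, Col8a2 and Col6a1 had the highest mean Ctrl levels of this class, at 3524, 709 and 503 normalized counts per kb. Col18a1 had 17150 to 26419 normalized counts over the 14 Ctrl libraries and 13276 to 36795 over the Dox libraries and was not called in any line (log2 -0.38 to 0.48). Col23a1, a transmembrane collagen, had its highest value in iG+A (log2 1.06 ± 0.18, limma adjusted p = 0.000124) and was not called in any line either. Col6a4, Col6a5, Col6a6, Col7a1, Col9a1, Col9a2, Col9a3, Col14a1, Col15a1, Col17a1, Col20a1 and Col22a1 had no call. Of these, Col22a1, Col9a3, Col6a5 and Col6a6 had a value of at least 1 either way in at least 1 line and are named after their values were seen. Col22a1 had log2 values of -1.37, -1.37 and -1.49 in iGfi1, iG+P and iGPA with no overlap of Dox and Ctrl. In iG+A, the other line with Gfi1, it had 244 and 285 normalized counts in Ctrl and 172 and 171 in Dox (log2 -0.61), and its values in iAtoh1, iP+A and iPou4f3 were 0.09, -0.09 and -0.17. Col9a3 had 1.45 in iG+P (limma adjusted p = 0.000654), with the Dox libraries above. Col6a5, at 0 to 13.8 normalized counts over all 28 libraries, had 1.73 in iG+P and -1.49 in iGfi1 and missed the test in both (limma adjusted p = 0.12 and 0.196). Col6a6, also low, had Dox libraries below Ctrl in iG+A (log2 -1.37, limma adjusted p = 0.0321), iAtoh1 (-1.03) and iGPA (-1.10).

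Whether the falls went with Gfi1 was tested as the difference between the mean Dox effect of the 4 lines with Gfi1 and that of the 3 lines without. The lines are not balanced for the other factors, which sit in 2 of the 4 and in 2 of the 3, and the libraries are those of the line effects above. In this contrast 5 of 42 collagen genes were lower (background 2.96%) and 2 higher (background 3.88%). The lower genes were Col5a2 (log2 -3.53 ± 0.50, limma adjusted p = 2.25e-05), Col4a5 (-2.63 ± 0.33), Col1a2 (-2.16 ± 0.32), Col4a6 (-1.90 ± 0.42) and Col1a1 (-1.55 ± 0.29). The higher genes were Col11a2 (1.67 ± 0.18) and Col2a1 (1.66 ± 0.41). For Col5a2 the lines without Gfi1 were not alike: it fell in iAtoh1 (log2 -1.90) and was higher without a call in iPou4f3 (1.11) and iP+A (1.47), and its Ctrl group means ran from 272 to 2305 normalized counts. All 7 are fibrillar or type IV, and 0 of the 25 other collagen genes were called, with 8 higher and 6 lower at an unadjusted p under 0.05 by limma. Leaving out single libraries gave 4 to 8 lower and 1 to 2 higher genes: it was 8 lower without Ctrl replicate 2 of iAtoh1 or Ctrl replicate 1 of iP+A, and 1 higher without Ctrl replicate 1 of iAtoh1, Ctrl replicate 2 of iPou4f3 or Ctrl replicate 1 of iG+A.

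Because all Dox libraries were sorted, the same lines were also compared among the Dox libraries alone. With Gfi1, 6 of 42 collagen genes were lower (background 3.28%) and 1 higher (background 3.43%). These were Col5a2 (log2 -3.40 ± 0.35), Col4a5 (-2.51 ± 0.24), Col1a2 (-2.06 ± 0.23), Col4a6 (-1.70 ± 0.30), Col5a1 (-1.55 ± 0.19) and Col1a1 (-1.53 ± 0.21), each lower, and Col11a2 (1.76 ± 0.12), higher. The Col5a2 value does not hold for every line without Gfi1: its mean in the Dox libraries of iAtoh1 was 98.4 normalized counts, against 79.2, 68.5 and 76.1 in iG+A, iG+P and iGPA and 241 in iGfi1, and it was 5003 in iPou4f3 and 2189 in iP+A. For Col1a2 the Dox means also overlapped, with 3378 in iGfi1 and 2486 in iAtoh1. Single Dox libraries overlapped for Col4a6 (1155 normalized counts in iG+A against 709 in iAtoh1). They also did for Col1a1 (21506 in iGfi1 against 14433 in iAtoh1) and Col5a1 (11150 in iGfi1 against 9155 in iAtoh1). For Col4a5 no Dox libraries overlapped, and its Dox means were 197 to 785 in the 4 lines with Gfi1 and 1543 to 2801 in the 3 without. Among the Ctrl libraries the same contrast called 0 of 42 (background 0.0119% higher and 0.0178% lower), with 3 lower and 0 higher at an unadjusted p under 0.05 by limma. The Ctrl contrasts for Atoh1 (background 0.0356% and 0.0119%) and Pou4f3 (background 0.0178% and 0.00594%) also called 0 of 42, with none and 1 (higher) at an unadjusted p under 0.05. Single libraries moved the count of lower genes between 4 and 7.

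**Figure D5:**
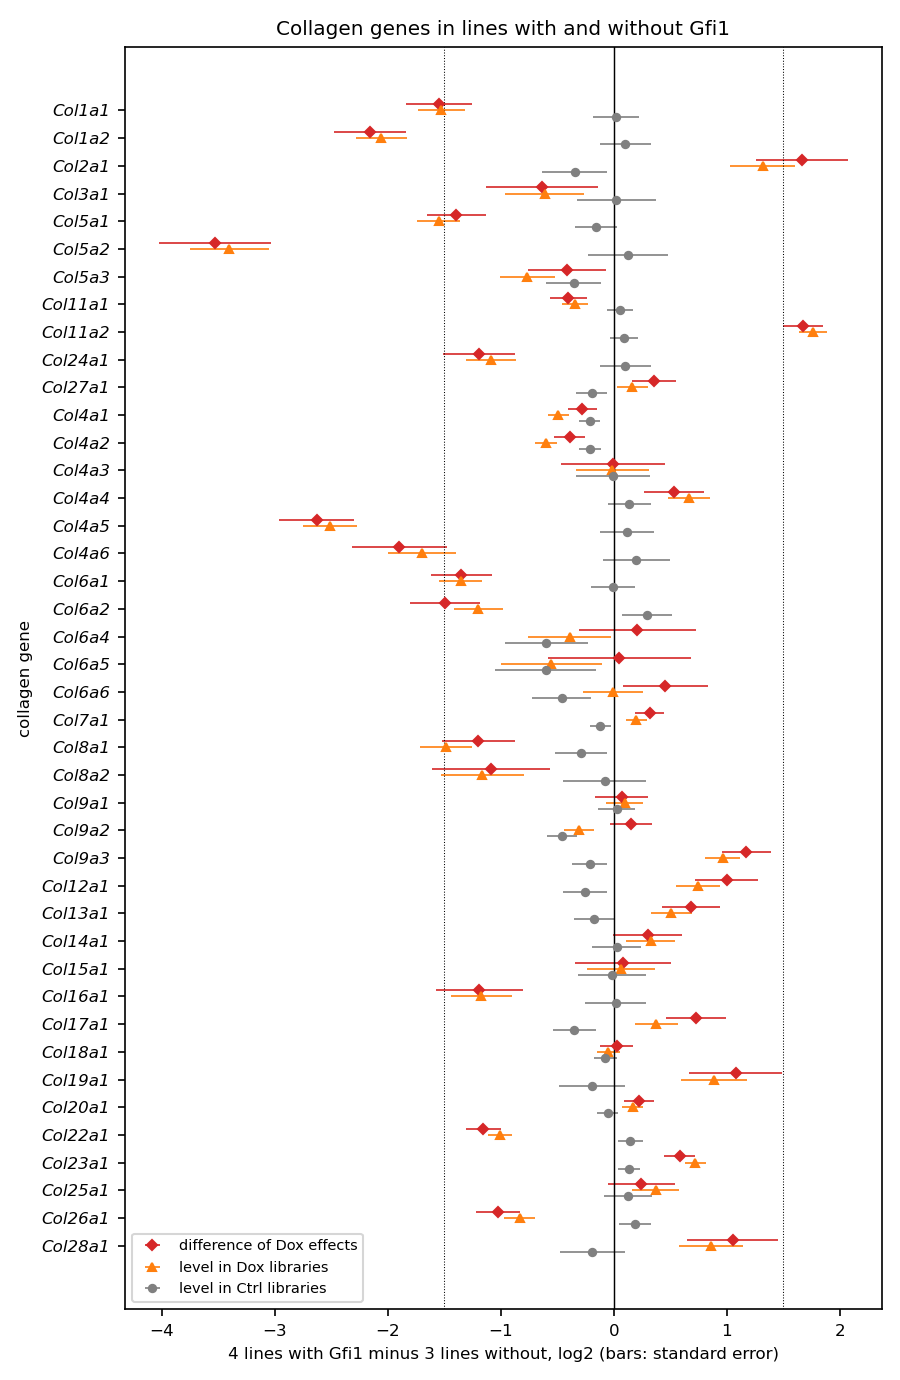
The 4 lines with Gfi1 minus the 3 without, on the log2 scale with standard errors, for 42 collagen genes: the difference of Dox effects (diamonds), the level in Dox libraries (triangles) and the level in Ctrl libraries (circles), with dotted lines at the fold threshold of 1.5 either way. Circles stay near 0 while diamonds and triangles of Col5a2, Col4a5, Col1a2 and Col4a6 lie to the left and those of Col11a2 to the right.

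For the other 2 factors fewer collagen genes were called. In the difference of Dox effects, Atoh1 had 1 higher, Col26a1 (log2 1.79 ± 0.20, limma adjusted p = 2.35e-06; background 2.99%), and 1 lower, Col8a2 (-1.79 ± 0.52, adjusted p = 0.0128; background 1.59%). The Col8a2 call ended without Dox replicate 2 of iG+A, and there were 2 lower genes without Dox replicate 2 of iPou4f3, Dox replicate 1 of iG+A, Ctrl replicate 2 of iG+P or Ctrl replicate 1 of iGPA. Pou4f3 had 2 higher, Col5a2 (2.27 ± 0.50, limma adjusted p = 0.00589) and Col2a1 (1.62 ± 0.41, adjusted p = 0.0146), and 0 lower (background 1.81% and 0.529%), with 7 lower at an unadjusted p under 0.05. The Pou4f3 count was 1 higher without Ctrl replicate 1 of iAtoh1, iGfi1 or iPou4f3 or Ctrl replicate 2 of iG+A. Among the Dox libraries, Col26a1 had 1.53 and Col8a2 -1.69 with Atoh1 (background 3.09% and 1.48%), and with Pou4f3 Col5a2 and Col2a1 had 2.00 and 1.52 and Col5a3 had -1.54 (background 1.79% and 0.992%). The rise with Atoh1 ended without Dox replicate 2 of iG+A or iG+P or Dox replicate 1 of iP+A or iGPA, and the fall without Dox replicate 2 of iGfi1 or iG+A. With Pou4f3, 1 of the 2 rises ended without Dox replicate 2 of iAtoh1, iGfi1, iPou4f3 or iGPA or Dox replicate 1 of iG+A, iG+P or iP+A, and the fall without Dox replicate 1 of iAtoh1 or iP+A or Dox replicate 2 of iPou4f3 or iG+P.

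Lines that differ by Gfi1 were also compared in pairs, as the difference of their Dox effects, which takes in their Ctrl levels too. For iG+P minus iPou4f3, 3 of 42 collagen genes were higher (background 3.43%) and 6 lower (background 4.19%), among them Col4a5 (-3.40), Col5a2 (-2.95), Col4a6 (-2.79), Col1a1 (-2.38) and Col1a2 (-2.12). For iGPA minus iP+A, 2 were higher (background 4.76%), Col19a1 and Col11a2 (1.94), and 5 lower (background 2.84%), with Col5a2 at -5.47, Col4a5 at -3.02 and Col1a2 at -2.97. For iG+A minus iAtoh1, 2 were higher (background 4.44%), Col2a1 (2.81) and Col11a2 (2.19), and 6 lower (background 2.44%), with Col5a2 at -3.08, Col1a2 at -2.82 and Col4a5 at -2.56. For Col5a2 the Dox libraries of these 2 lines overlapped (118 and 40.3 normalized counts in iG+A, 111 and 86.0 in iAtoh1), and the Ctrl libraries were far apart (2962 and 1648 against 384 and 348). For Col1a2 the means were 1053 and 2486 in Dox and 19793 and 7564 in Ctrl. For iGPA minus iAtoh1, in which both other factors were added, 3 were higher (background 6.05%) and 13 lower (background 2.99%). Col4a5 and Col1a2 were lower in all 4 of these differences, which share libraries with each other and with the line effects.

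Genes that act on collagen were counted in the same way, and their counts can be read against the background shares of each line given above. Of 19 genes of chain modification and folding, which hydroxylate, glycosylate and chaperone the chains inside the cell, at most 2 were called in a line, all of them falls (2 of 19 in iGPA, background 5.31%). Below the threshold most of the list was lower with Dox in some lines: 19 of 19 genes had a value under 0 in iG+P (median -0.61), 18 in iGfi1 (median -0.67), 16 in iGPA (median -0.43), 15 in iP+A (median -0.34), 13 in iG+A (median -0.37), 11 in iPou4f3 (median -0.02) and 9 in iAtoh1 (median 0.02). P4ha3, a prolyl hydroxylase subunit, had 614 and 547 normalized counts in the Ctrl libraries of iGPA and 69.9 and 84.7 in Dox (log2 -2.90 ± 0.30), and it also fell in iG+A and iG+P. Serpinh1, the collagen chaperone, had -1.47 in iGPA, short of the fold threshold. Of 19 genes of fibril processing and crosslinking, 9 fell (background 5.31%) and 3 rose (background 8.65%) in iGPA, 6 and 2 in iG+P (background 5.36% and 5.16%), 5 and 3 in iG+A (background 4.95% and 7.35%), 5 and 2 in iGfi1 (background 2.67% and 2.15%), 2 and 1 in iAtoh1 (background 2.52% and 2.89%), 1 and 0 in iP+A (background 2.58% and 4.7%) and 0 and 0 in iPou4f3. The 3 rises in iGPA and in iG+A were Bgn, Tgm2 and Tll2. Among those with the largest falls in iGPA were the small proteoglycans Lum (log2 -6.55), which had 259 and 1040.4 normalized counts in Ctrl and 4.09 and 5.04 in Dox, and Fmod (-5.60), with Lox (-3.41), the crosslinking oxidase, and Dcn (-3.15) after them.

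Of 18 other basement membrane genes, 8 fell (background 5.31%) and 2 rose (background 8.65%) in iGPA, 6 and 1 in iG+P (background 5.36% and 5.16%), 3 and 2 in iG+A (background 4.95% and 7.35%), 2 and 1 in iGfi1, 1 and 0 in iAtoh1, and 0 in iP+A and iPou4f3. Those with the largest values in iGPA were the laminin chains Lama2 (log2 -2.76), Lamc3 (2.21) and Lama3 (1.83) and the linker Nid1 (-2.07). The type IV genes Col4a1 and Col4a2 were not called in lines in which laminin and nidogen genes were. Of 13 tested genes of collagen degradation and its inhibitors, 2 fell in iGPA, iG+P, iG+A and iGfi1 (background 5.31%, 5.36%, 4.95% and 2.67%). These were Timp1, an inhibitor of matrix proteases, and Mmp9, a gelatinase. Both also fell in iP+A, with Timp3 (background 2.58%). Mmp16 rose in iG+P (background 5.16%), and none was called in iAtoh1 and iPou4f3. The summed level of the list was higher with Dox in iAtoh1 (39656 and 45840 in Ctrl, 48901 and 54515 in Dox). It was lower in iG+P (42802 and 44487 in Ctrl, 29578 and 30763 in Dox) and overlapped in iGPA. Timp1 had 76.9 and 88.4 normalized counts in the Ctrl libraries of iGPA and 6.13 and 10.1 in Dox. Of 10 collagen receptors, 1 fell in iGPA, Ddr2 (background 5.31%), and 1 in iG+P and in iGfi1, Itga1 (background 5.36% and 2.67%). In iAtoh1 1 fell, Adgrg1 (background 2.52%). In iG+A 2 fell, Ddr2 and Lair1 (background 4.95%), and 1 rose, Gp6 (background 7.35%). None was called in iP+A and iPou4f3. The summed level of the receptors overlapped between Ctrl and Dox in iG+A. In iGPA it was 34973 and 35404 normalized counts in Ctrl and 30321 and 31520 in Dox.

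Some markers of other cell types were called in the same lines. Of 15 tested fibroblast markers, which share Lum and Dcn with the processing list, 6 fell (background 5.31%) and 2, Meox1 and Thy1, rose (background 8.65%) in iGPA, 7 fell in iG+P (background 5.36%), 5 fell (background 4.95%) and 1 rose in iG+A, 2 fell in iGfi1 (background 2.67%), 1 fell in iAtoh1 (background 2.52%), 1 fell and 1 rose in iP+A (background 2.58% and 4.7%) and 0 were called in iPou4f3. Their summed level was 42454 and 67937 normalized counts in the Ctrl libraries of iGPA and 13682 and 15505 in Dox, and 39743 and 40267 against 10446 and 11758 in iG+P. In iAtoh1, iPou4f3 and iP+A it was 26375 and 36747 against 25459 and 32569, 89383 and 54315 against 88475 and 45445, and 62956 and 45684 against 45156 and 41308. Postn, a matricellular protein of the list, had 11107 and 35905 in Ctrl and 1066 and 3022 in Dox of iGPA. Over all libraries the sum was 26375 to 89383 in Ctrl and 10446 to 88475 in Dox, and Dpt was at 0 in both Dox libraries of iAtoh1.

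Of 16 markers of extraembryonic endoderm, a source of type IV collagen and laminin in EBs, 6 fell (background 5.31%) and 1 rose (background 8.65%) in iGPA. In iG+P 8 fell (background 5.36%), and in iG+A 5 fell (background 4.95%) and 1 rose (background 7.35%). In iGfi1 and in iAtoh1 3 fell (background 2.67% and 2.52%), and in iP+A and in iPou4f3 1 fell (background 2.58% and 0.606%). The list shares Lama1 with the basement membrane list, Pdgfra with the fibroblast list and Sparc with the processing list. Falls of these genes are counted in both lists. The summed level of the list was 57642 and 63137 normalized counts in the Ctrl libraries of iGPA and 20487 and 23332 in Dox. Both Dox libraries also lay below both Ctrl libraries in iG+P, iG+A, iGfi1 and iP+A, and the groups overlapped in iAtoh1 and iPou4f3. Over all libraries the sum was 46366 to 92625 in Ctrl and 17989 to 63115 in Dox. The smooth muscle list had 2 falls and 2 rises among 7 genes in iGPA (background 5.31% and 8.65%): Acta2 and Tagln fell (log2 -3.84 and -1.64), and Mylk and Des rose (3.23 and 2.02). Its summed level, mostly Acta2 in the Ctrl libraries of iGPA (29734 and 30630 of 35623 and 36221), was 15191 to 78228 normalized counts in Ctrl and 4986 to 30567 in Dox over all lines. The endothelial list had 1 of 10 lower and 1 higher in iGPA (background 5.31% and 8.65%). Its summed level was 24381 and 24357 normalized counts in the Ctrl libraries of iG+A and 33730 and 37994 in Dox, and it went the other way in iG+P (16711 and 19570 against 8016 and 7716). The surface epithelium list had 4 of 8 lower in iGPA and in iG+A (background 5.31% and 4.95%), 3 in iGfi1 and in iG+P (background 2.67% and 5.36%), 2 in iAtoh1 and in iP+A (background 2.52% and 2.58%) and none in iPou4f3 (background 0.606%). Its summed level was 30880 and 25637 in the Ctrl libraries of iGPA and 5968 and 6920 in Dox, and 32797 and 26462 against 8510 and 7805 in iAtoh1, which lacks Gfi1, with Krt5 at 0 in both Dox libraries of iAtoh1, iG+A and iGPA. The part of these cells in the collagen differences was not tested.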

How the data were processed

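Libraries were made with an mRNA kit from total RNA of whole day 6 EBs (Ctrl) or of Venus+ cells sorted from them (Dox). There were 28 libraries from 7 Dox-inducible lines, in 14 groups of 2. The deposited table held 1 value per gene and library, log2 of the normalized count plus 1, made by the authors with cutadapt, kallisto and DESeq2 on mm9 (per the labels and the methods, with no versions given). Values were returned to normalized counts, whose sums were 36.8 to 40.4 M a library. At values up to 20, 70.6% to 79.4% lay within 0.05 of a whole number of reads, so raw counts could not be recovered, a count test was not run and depth (30.4 to 48.0 M reads) is an estimate. Size factors assume that most genes do not change.

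Entrez IDs were given symbols through RefSeq (19314 of 19421 named, 107 not). The 16837 genes that reached 10 normalized counts in 2 libraries or more entered a fit by limma 3.58.1 (variance trend) in R 4.3.3 on log2(normalized count + 1), with 1 mean per group and 14 residual degrees of freedom. A gene was called at a Benjamini-Hochberg adjusted p under 0.05 over all genes tested and a log2 fold change of at least 1.5 either way. The SE is limma's moderated standard error. Fold changes on this scale understate those of low genes, whereas folds of means use normalized counts. Levels per kb use the longest coding transcript of the NCBIM37 annotation, and Col26a1 had no length. Tables and figures were made with Python 3.11.15 and pandas 2.3.3. The fit was tested on simulated data.

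The replicates are different clones, so the spread within a group is that between 2 clones. The p-values rest on this spread pooled over all 14 groups and moderated by limma across genes. Deviations of same-numbered Dox and Ctrl libraries from their group means correlated at 0.103 to 0.246 in the 7 lines, each over 0.1, so a fit with the replicate number as a block was an alternative. The series text says that the 2 replicates of a line are different clones, and whether a Dox and a Ctrl library of 1 number share a clone is not given for each library. The other alternatives were a pseudocount of 5, quantile and 75th percentile scaling, no filter or one of 50 normalized counts, no trend, the line's libraries alone, all Ctrl libraries as 1 control, the Dox libraries alone, a log2 threshold of 1, a wider basement membrane class and leaving out each library.

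Named were every collagen gene called in a line, the 3 with the highest mean Ctrl value in each class, 6 gene pairs, and up to 4 genes of each partner list that were called in iGPA or in at least 3 lines. Col22a1, Col9a3, Col6a5, Col15a1, Col20a1, Col9a2, Col6a6, Serpinh1, Bgn, Tgm2, Tll2, Itga1, Adgrg1, Lair1, Gp6, Timp3, Mmp16 and the marker genes were named after their values were seen. The collagen genes, the partner lists (modification and folding, fibril processing and crosslinking, other basement membrane, degradation and inhibitors, receptors) and the marker lists (fibroblast, extraembryonic endoderm, endothelium, smooth muscle, cartilage, surface epithelium) were chosen with earlier results of these data known.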

Additional observations from a re-analysis of the deposited data

Results flagged for a closer look

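Lines differed in their Dox effects on 51 gene and contrast pairs, each by limma's test of the difference itself (adjusted p under 0.05 over all genes, log2 difference of at least 1.5). The contrasts share libraries with each other, so the same gene can recur. With Gfi1 against without, the differences were 1.67 for Col11a2, 1.66 for Col2a1, -1.55 for Col1a1, -1.90 for Col4a6, -2.16 for Col1a2, -2.63 for Col4a5 and -3.53 for Col5a2. With Atoh1 they were 1.79 for Col26a1 and -1.79 for Col8a2, and with Pou4f3 they were 1.62 for Col2a1 and 2.27 for Col5a2.

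For iGPA minus iAtoh1 the fibrillar genes had 3.69 (Col2a1), 1.69 (Col11a2), -2.19 (Col5a1), -2.38 (Col24a1), -2.40 (Col5a3), -2.47 (Col1a1) and -2.74 (Col1a2). The type IV genes Col4a5 and Col4a6 had -3.23 and -2.62. The other collagens had 2.90 (Col19a1), -1.58 (Col22a1), -1.96 (Col8a1), -1.98 (Col26a1), -2.33 (Col16a1), -2.76 (Col6a1) and -3.20 (Col6a2).

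For iGPA minus iP+A the differences were 3.18 for Col19a1, 1.94 for Col11a2, -1.91 for Col1a1, -2.35 for Col4a6, -2.97 for Col1a2, -3.02 for Col4a5 and -5.47 for Col5a2. In iG+A minus iAtoh1 they were 2.81 for Col2a1, 2.19 for Col11a2, -1.64 for Col5a1, -2.22 for Col6a1, -2.56 for Col4a5, -2.72 for Col6a2, -2.82 for Col1a2 and -3.08 for Col5a2, whose Dox libraries overlapped between these 2 lines (118 and 40.3 against 111 and 86.0 normalized counts) while its Ctrl libraries did not (2962 and 1648 against 384 and 348). In iG+P minus iPou4f3 they were 2.61 for Col2a1, 2.43 for Col12a1, 1.98 for Col9a3, -1.57 for Col5a1, -2.12 for Col1a2, -2.38 for Col1a1, -2.79 for Col4a6, -2.95 for Col5a2 and -3.40 for Col4a5.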

How the results depend on the processing

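No call changed direction under any setting tried, and 36 of the 61 calls held in all settings run for their line. With the libraries of the line alone, 3 collagen genes fell in iAtoh1 and 3 in iP+A. With all Ctrl libraries as 1 control, 3 fell in iGfi1 and 2 in iP+A. At a log2 threshold of 1, 1 rose and 8 fell in iGfi1, 3 rose in iP+A, and the differences of Dox effects called 4 higher and 13 lower for Gfi1, 2 higher and 4 lower for Atoh1 and 2 lower for Pou4f3. Among Dox libraries, quantile scaling left 0 higher with Atoh1 and 0 lower with Pou4f3, and a pseudocount of 5 left 0 lower with Pou4f3. Leaving out 1 library gave 0 to 5 falls in iAtoh1, 6 to 10 in iG+P and 2 to 5 in iP+A. It gave 1 to 2 higher and 4 to 8 lower for the Gfi1 difference, 0 to 2 lower for the Atoh1 difference and 1 to 2 higher for the Pou4f3 difference. Among Dox libraries it gave 0 to 1 higher and 0 to 1 lower with Atoh1, and 1 to 2 higher and 0 to 1 lower with Pou4f3. A lone library left in a group was taken to vary like the other groups. Causes were not tested. With the replicate number as a block, 0 of 61 calls were lost and 1 was gained, Col3a1 in iG+A (-1.53, limma adjusted p = 3.81e-05). With 2 libraries a group, a gene that missed the threshold is not shown to be without change.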
